A study of Mus musculus with 6 samples.

Results

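The genes described here are those of de novo fatty acid synthesis, the pathway by which liver turns carbohydrate carbon into fatty acids: Acly, Acss2 and Me1, Acaca, Acacb and Fasn, Scd1 and Elovl6, and the regulators Thrsp and Mlxipl. Their members were every probe set (a set of short array probes for 1 transcript) whose platform gene symbol is 1 of these 10 names. This gave 16 probe sets for 9 genes, out of 11811 probe sets and 7163 named genes, and all 16 passed the filter of a mean signal of at least 100. Acacb was not analysed here. Total liver RNA was hybridised to Affymetrix arrays. Of the 6 arrays, 1 per liver sample, 3 carried RNA of Atp7b knockout mice (KO903, KO904 and KO905) and 3 that of wild-type mice (WT4, WT5 and WT6). Atp7b encodes the copper-transporting ATPase whose loss causes Wilson disease, and the series title places the study early in copper accumulation; the knockout line is labelled as 1 described earlier. The labels give no sex, age, strain, diet, feeding state or time of sampling. Nor do they state that the samples came from different animals, and the p-values reflect sample-to-sample spread that may be technical.

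In fatty acid synthesis, cytosolic acetyl-CoA is made from citrate or acetate, carboxylated to malonyl-CoA, and joined by fatty acid synthase into palmitate with electrons from NADPH. Palmitate is then lengthened and desaturated. In liver the pathway is known to be switched on by feeding, through the transcription factors SREBP-1c (from Srebf1) and ChREBP (from Mlxipl), and its transcripts follow a daily rhythm.

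The arrays were alike in scale, with median signals of 330.8 to 342.8. Hepatocyte markers were bright, and 7 of 8 listed were measured. Their summed signal was 123252 to 142781 in knockout livers and 132450 to 158937 in wild-type livers. Limma called none of the 7, and 5 had a log2 difference below 0. Tat was lower without overlap, at 8469.7 to 10270.1 in knockout livers and 11360 to 15032.6 in wild-type livers (limma adjusted p = 0.0803). Atp7b itself, read by 1 probe set whose position relative to the disrupted part was not examined, had signals of 184.9 to 240.5 in knockout livers and 241 to 299.7 in wild-type livers (log2 difference -0.27 ± 0.16 SE, limma adjusted p = 0.407), so the array does not check the genotype labels.

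Of the 9 lipogenic genes measured, limma called 3 as lower in the Atp7b knockout livers on their brightest probe set. All 9 had a log2 difference below 0 there. The regulator Thrsp, the synthase Fasn and the elongase Elovl6 fell 3.23-fold, 2.46-fold and 2.19-fold on their brightest probe sets. The remaining 6 genes did not pass the test on that probe set, among them Scd1 and Me1, whose log2 differences were -0.18 and -0.25. Across all 16 probe sets, the knockout mean of log2 signals was below the wild-type mean, and 6 probe sets passed as lower: both of Thrsp, both of Elovl6, the only one of Fasn and 1 of 3 of Acly. The test was limma on log2(signal + 16), and p-values were adjusted by Benjamini-Hochberg across the 10620 probe sets tested, with calls made below 0.05. By the same test 2.09% of all tested probe sets were called lower and 2.05% higher, and no member was called higher (0 at an unadjusted p under 0.05, against 11 lower). Small unadjusted p-values were common. Mlxipl, with a limma p of 0.0353, ranked 1592 among the 10620 tested probe sets. More than 1592 probe sets therefore had a limma p under 0.05, and this count is a lower bound wherever it is given below. Counted by gene on the brightest probe set, 3 of 9 were called lower, against 1.8% of 6604 tested genes called lower and 2.14% called higher. The members were chosen with earlier results of these data known, so these shares are background and not a test of the members. The same 6 probe sets were those whose knockout signals all lay below every wild-type signal, as did 10.4% of all tested probe sets. The counts depended on single livers: 2 member probe sets were called without KO904 and 10 without WT6, and 4 or 5 without any other 1 liver; by gene, 5 were called without WT6, 2 without WT5 and 1, Thrsp, without any of the other 4. The median log2 difference was -0.95 over the 9 genes and 0.03 over all tested genes. In bulk tissue, fewer cells of a type and less RNA per cell cannot be told apart.

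**Figure D1:**
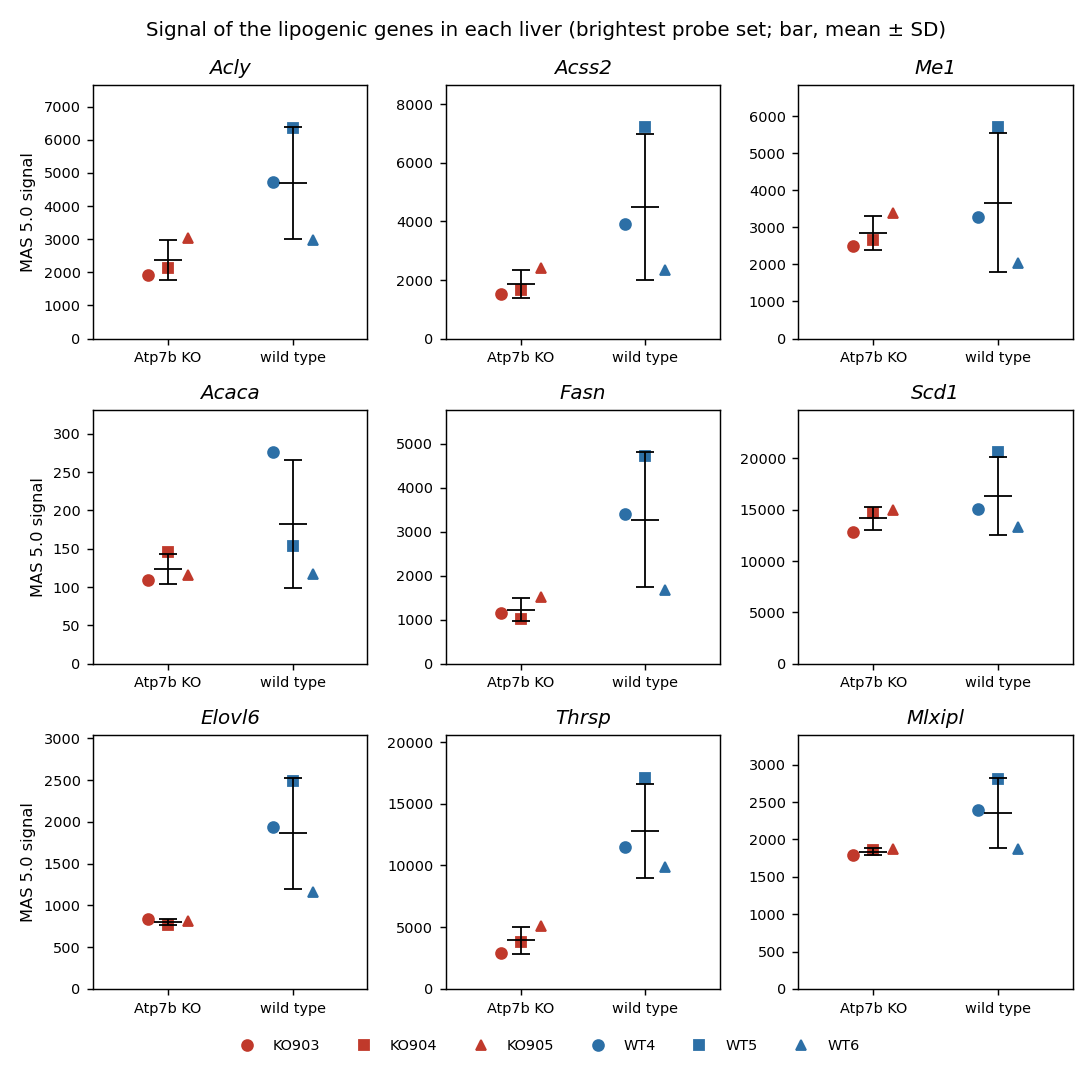
MAS 5.0 signal (linear axis from 0) of 9 lipogenic genes on their brightest probe set in each Atp7b knockout (red, left) and wild-type (blue, right) liver; horizontal bars are group means and error bars SD, n = 3. The knockout points lie below all wild-type points for Thrsp, Fasn and Elovl6, and overlap them for the other 6 genes.

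Of the carbon and NADPH suppliers, Acly and Acss2 lay at or near the threshold and Me1 far from it. Acly, the ATP citrate lyase that makes cytosolic acetyl-CoA from citrate, was read by 3 probe sets. On the brightest its signal was 1913.4, 2124.5 and 3044.5 in KO903, KO904 and KO905, against 4712, 6369.7 and 2986.9 in WT4, WT5 and WT6. The groups overlapped, because WT6 lay just under KO905. The log2 difference was -0.95 ± 0.24 (SE), 1.93-fold lower, with a limma adjusted p of 0.0554, just outside the threshold. On a second probe set the signals were 990.4, 1157.1 and 1571.2 in the same knockout livers and 3009.8, 2925.1 and 1996.7 in the wild-type livers, and the groups did not overlap. There Acly fell 2.12-fold (log2 -1.09 ± 0.19, limma adjusted p = 0.0104). The third had a difference of similar size and a larger error (log2 -1.13 ± 0.39, limma adjusted p = 0.142). Among the fits with 1 liver left out, the brightest and the third passed only without WT6 (limma adjusted p = 0.0108 and 0.0217), and the second was lost only without KO904 (0.0592). With all livers, the brightest also passed with arrays centred on their median (0.0456) and with array weights (0.0425).

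Acss2, which makes acetyl-CoA from acetate and is a known SREBP target, had signals of 1513.9, 1671.2 and 2401 in KO903, KO904 and KO905 on its brighter probe set, against 3909.6, 7222.4 and 2347.8 in WT4, WT5 and WT6. WT5 stood far above the other wild-type livers and WT6 again fell within the knockout range. On the log2 scale the difference was -1.14 ± 0.32 (SE), as large as that of Elovl6, but the limma adjusted p was 0.0758; the other probe set gave -1.18 ± 0.31 and 0.06. Without WT6 the values for Acss2 were -1.53 (adjusted p = 0.0126) and, for the other probe set, an adjusted p of 0.0168; that probe set also passed without KO905 (0.048).

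Me1, the cytosolic malic enzyme that yields NADPH, showed no such separation. Its signals were 2507.7, 2650.1 and 3375.8 in the knockout livers and 3270.8, 5703 and 2028.7 in WT4, WT5 and WT6. The lowest and the highest values were both wild type. This gave a log2 difference of -0.25 ± 0.29 (SE; 95% interval -0.88 to 0.38, limma adjusted p = 0.719), and without WT5 it was 0.13. The second probe set gave -0.11 ± 0.34 (adjusted p = 0.903).

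At the committed step, Acaca, the cytosolic acetyl-CoA carboxylase, was read by 1 dim probe set, with 108.6, 145.6 and 116.1 in KO903, KO904 and KO905 against 275.6, 153.2 and 117.6 in WT4, WT5 and WT6. Only WT4 stood clearly above the knockout livers. The log2 difference was -0.44 ± 0.26 (SE; 95% interval -1.01 to 0.13, limma adjusted p = 0.418), and -0.12 without WT4. MAS 5.0 signals this low are noisy.

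Fasn, fatty acid synthase, which builds palmitate from malonyl-CoA, had signals of 1146.3, 1021.9 and 1515.1 in KO903, KO904 and KO905, against 3410.1, 4734.7 and 1670.9 in WT4, WT5 and WT6. All knockout values lay below all wild-type values, but KO905 and WT6 came close. Fasn averaged 1228 ± 256 in knockout and 3272 ± 1537 in wild-type livers (SD, n = 3 each), and the log2 difference was -1.30 ± 0.30 (SE, limma adjusted p = 0.0365). Leaving out 1 liver ended the call for KO903 (adjusted p = 0.115), KO904 (0.148), KO905 (0.0633), WT4 (0.111) or WT5 (0.0616), while without WT6 it was 0.00137. The log2 difference stayed between -1.72 and -0.97 in these fits. The call also ended with eBayes without the intensity trend (0.0705) and with robust eBayes (0.0953).

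Of the enzymes that modify palmitate, Elovl6, which lengthens it to stearate, fell. Its brighter probe set had 832.9, 767.4 and 813.5 in KO903, KO904 and KO905 against 1942, 2489.2 and 1163.2 in WT4, WT5 and WT6. The knockout livers were close together and lay below every wild-type liver. On the log2 scale the difference was -1.13 ± 0.22 (SE, limma adjusted p = 0.0172), and the other probe set gave -1.47 ± 0.26 (adjusted p = 0.0107). Without KO903, KO904, KO905 or WT4 the adjusted p of the brighter one was 0.0534, 0.0775, 0.0611 and 0.0597; the other one lost its call only without KO904 (0.0599).

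Scd1, the desaturase that turns stearate into oleate and a classic SREBP-1c and LXR target, did not pass. Its brightest probe set had 12851.7, 14673.1 and 14929.3 in the knockout livers and 15031.6, 20590.1 and 13304.4 in WT4, WT5 and WT6. WT6 fell within the knockout range, and WT5 alone stood well above it. This gave a log2 difference of -0.18 ± 0.14 (SE; 95% interval -0.50 to 0.13, limma adjusted p = 0.562). The dimmer one gave -0.44 ± 0.24 (95% interval -0.96 to 0.08, adjusted p = 0.361). Both intervals lie above the log2 difference measured for Thrsp, -1.69; the difference between the 2 genes was not tested.

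**Figure D2:**
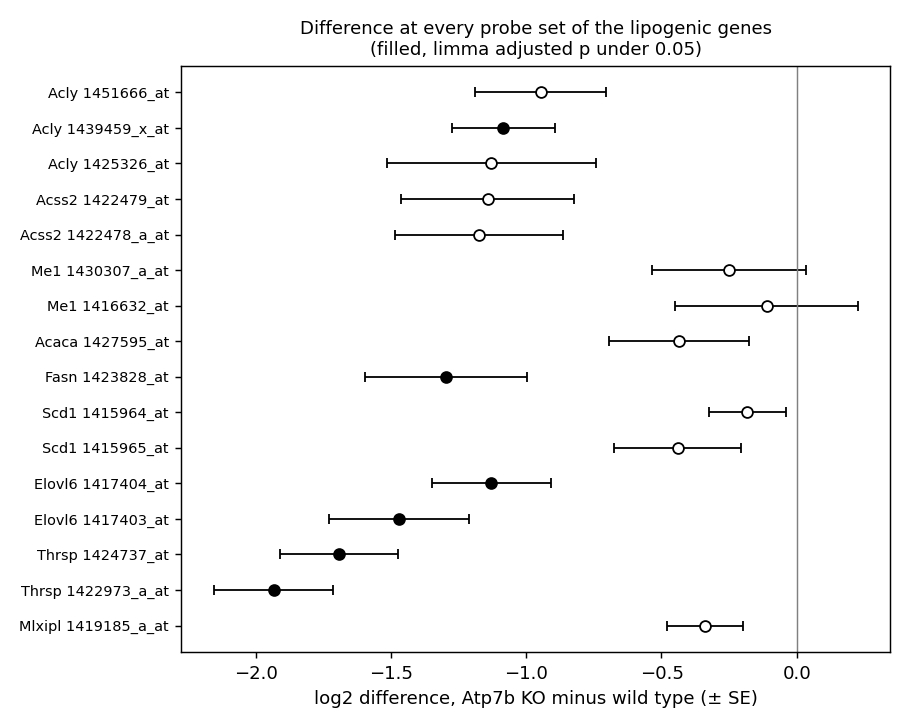
Log2 difference, Atp7b knockout minus wild type, with SE at each of the 16 probe sets; filled points passed a limma adjusted p of 0.05. All points lie below 0, and both probe sets of Thrsp lie farthest from it.

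Of the regulators, Thrsp fell and Mlxipl did not pass. Thrsp (Spot 14), a nuclear and cytosolic protein that promotes lipogenesis, had the largest fall among the members. Its brighter probe set read 2934.2, 3784 and 5116.9 in KO903, KO904 and KO905, against 11473, 17122.3 and 9866.7 in WT4, WT5 and WT6. The highest knockout liver was well under the lowest wild-type liver. The log2 difference was -1.69 ± 0.22 (SE, limma adjusted p = 0.0018). The other probe set read 1275.8, 1420.3 and 2090.6 in the same knockout livers, against 5646.6, 8398.9 and 4574.6 in the wild-type livers, a 3.83-fold fall (log2 -1.94 ± 0.22, adjusted p = 0.000864). Both kept the call without any 1 of the 6 livers (adjusted p up to 0.0142 and 0.00822).

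Mlxipl, which encodes ChREBP, the carbohydrate-responsive factor that drives Pklr and lipogenic genes, had signals of 1785.9, 1855.1 and 1873 in the knockout livers and 2398.6, 2807.9 and 1869.4 in WT4, WT5 and WT6. WT6 sat at the level of the knockout livers and the others above it. On the log2 scale the difference was -0.34 ± 0.14 (SE; 95% interval -0.65 to -0.03), with an unadjusted p of 0.0353 and a limma adjusted p of 0.235.

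The members also varied alike among the livers of each group. WT6 was the lowest wild-type liver at all 16 probe sets, WT5 the highest at 13, and KO905 the highest knockout liver at 13. Counted by gene, these held for 9, 8 and 7 of 9 members, and for 30.8%, 38% and 27.2% of all tested genes. By gene, 8 of 9 members followed the order WT5 above WT4 above WT6, which 18.9% of all tested genes did, and the exception was Acaca. The median log2 difference between WT5 and WT6 was 1.09 over the members and -0.00 over all tested genes; it was 1.61 for Acss2, 1.49 for Fasn and 1.48 for Me1. Between KO905 and KO903 it was 0.40 over the members and -0.03 over all tested genes. The highest wild-type signal was 1.50 to 3.67 times the lowest at the 16 probe sets, and the highest knockout signal 1.05 to 2.05 times the lowest, with the wider range in wild type at 13 of 16. By gene the wild-type range was the wider one for 8 of 9 members and for 54.6% of all tested genes. Deviations of the livers from their group means, which share arrays and their scaling, correlated between members with Pearson r of 0.62 to 0.99 over the 28 pairs without Acaca, and 0.07 to 0.41 over the 8 pairs with it (6 arrays each). The ratio of 3' to 5' signal of actin, a sign of RNA integrity, was 1.10 in WT5, 1.28 in WT4 and 1.47 in WT6, and 1.17 to 1.22 in the knockout livers. The same ratio of Gapdh was 0.866 in WT5, 0.859 in WT4 and 0.990 in WT6, and 0.815 to 0.895 in the knockout livers. The part of RNA integrity in the order of the wild-type livers was not tested.

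**Figure D3:**
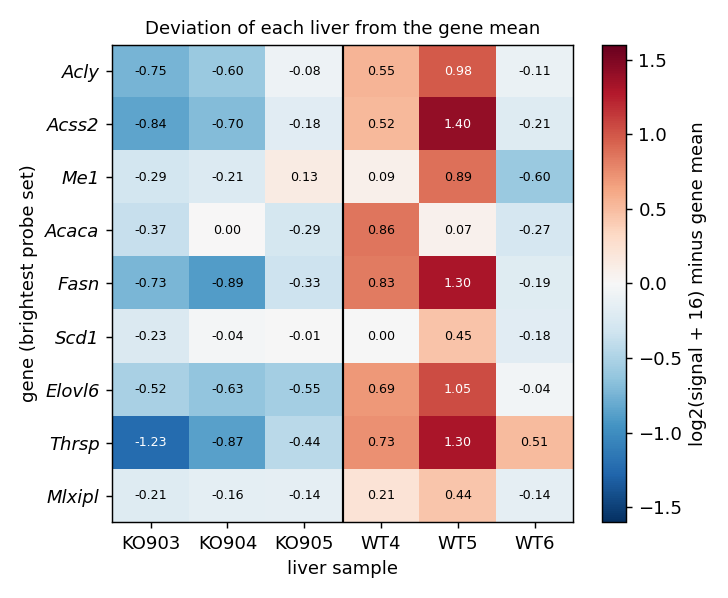
Log2(signal + 16) of each member in each liver minus the gene's mean over the 6 livers, as colour and number; knockout livers are left of the line. WT5 is above the mean for all 9 genes, and WT6 is below it for all except Thrsp.

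The genes whose log2 signals over the 6 arrays were most like those of Fasn, outside the members, were Adcy6 (Pearson r = 0.999), Mmab (0.996), Dolpp1 (0.994), Dhcr7 (0.989) and Elovl5 (0.984). Dhcr7 encodes the last reductase of cholesterol synthesis and Elovl5 an elongase of polyunsaturated fatty acids. None of these 5 passed the test between genotypes. The log2 differences were -0.16 for Adcy6, -0.34 for Mmab and -0.28 for Dolpp1 (limma adjusted p of 0.597, 0.315 and 0.311). They were -0.58 for Dhcr7 and -0.36 for Elovl5 (0.13 and 0.0842). With 6 arrays and 6604 genes, the highest correlations do not single out a pathway, and the likeness was not tested. Among 6604 genes, Acly ranked 7, Elovl6 10, Acss2 14 and Mlxipl 23 in likeness to Fasn. Thrsp ranked 67, Scd1 344, Me1 397 and Acaca 820.

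**Figure D4:**
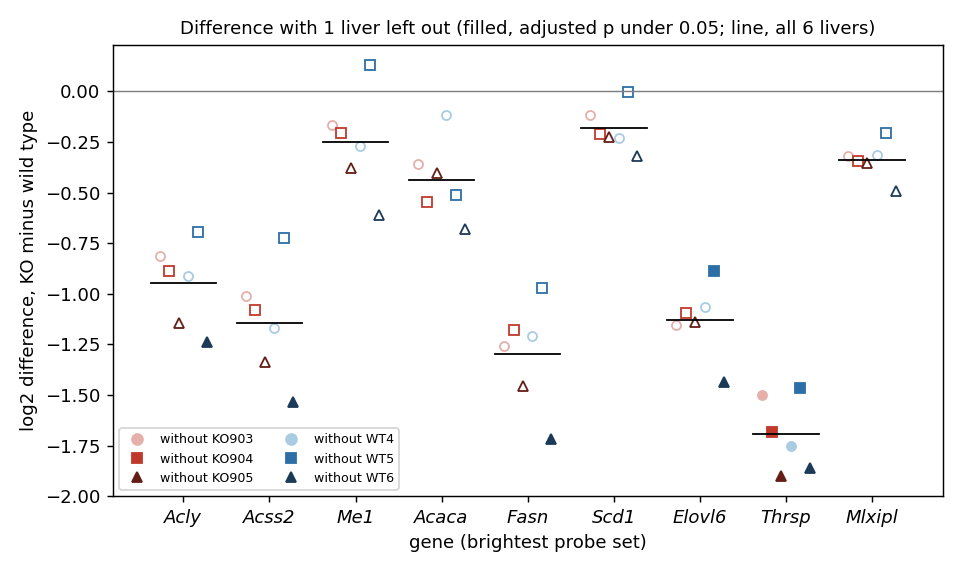
Log2 difference, Atp7b knockout minus wild type, of each member's brightest probe set with 1 liver left out; filled points have a limma adjusted p under 0.05 and the line is the value with all 6 livers. Thrsp stays between -1.90 and -1.46 and is filled in all 6 cases; Fasn is filled only without WT6, as are Acly and Acss2.

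The promoter windows of 4 members are shown because 3 of them were called on their brightest probe set and Acss2 had the largest log2 difference among the members that were not. They run from 250 bases before the annotated start to 50 after it, on the gene's strand, 5' to 3', from RefSeq on mouse GRCm38.p6, in which 9 of the 10 named genes had a window. Capitals mark matches, on both strands, to the CCAAT box (CCAAT, bound by NF-Y) and the GC box (GGGCGG, bound by Sp1). The E-box CACGTG was searched too. The windows are chr7:97417501-97417800 (minus strand) for Thrsp, chr11:120824498-120824797 (minus strand) for Fasn, chr3:129532136-129532435 (plus strand) for Elovl6 and chr2:155517793-155518092 (plus strand) for Acss2.
Thrsp: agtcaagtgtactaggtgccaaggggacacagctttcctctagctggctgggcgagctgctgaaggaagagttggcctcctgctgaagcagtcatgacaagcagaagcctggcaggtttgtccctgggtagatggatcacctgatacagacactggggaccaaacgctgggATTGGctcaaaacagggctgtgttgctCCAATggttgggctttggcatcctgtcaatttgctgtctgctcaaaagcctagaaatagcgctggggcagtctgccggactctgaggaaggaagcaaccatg
Fasn: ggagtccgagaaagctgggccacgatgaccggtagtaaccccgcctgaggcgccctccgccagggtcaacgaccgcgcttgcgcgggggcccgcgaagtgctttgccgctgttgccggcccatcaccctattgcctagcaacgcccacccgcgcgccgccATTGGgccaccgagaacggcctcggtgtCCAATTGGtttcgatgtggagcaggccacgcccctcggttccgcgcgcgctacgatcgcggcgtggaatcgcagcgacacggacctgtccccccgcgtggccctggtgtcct
Elovl6: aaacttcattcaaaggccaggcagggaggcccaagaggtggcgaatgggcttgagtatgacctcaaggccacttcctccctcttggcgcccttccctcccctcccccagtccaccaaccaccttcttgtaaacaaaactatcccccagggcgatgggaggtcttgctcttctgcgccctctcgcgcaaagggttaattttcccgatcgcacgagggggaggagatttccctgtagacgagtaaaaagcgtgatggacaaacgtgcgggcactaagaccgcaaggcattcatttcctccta
Acss2: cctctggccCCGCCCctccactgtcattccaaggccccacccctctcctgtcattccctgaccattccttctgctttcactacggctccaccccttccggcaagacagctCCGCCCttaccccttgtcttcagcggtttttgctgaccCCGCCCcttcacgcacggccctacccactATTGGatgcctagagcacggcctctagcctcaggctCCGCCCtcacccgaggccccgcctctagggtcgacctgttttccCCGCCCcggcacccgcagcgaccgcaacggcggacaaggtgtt
Thrsp held 2 CCAAT boxes, beginning 79 and 52 bases before the start. Fasn held 3, beginning 90, 62 and 59 bases before it, of which the last 2 overlap on opposite strands. Acss2 held 1 CCAAT box and 5 GC boxes, and Elovl6 none of the 3 motifs in this window. Of 32851 mouse promoter windows of this length, 37.4% held a CCAAT box (11.7% at least 2), 35.7% a GC box and 7.15% the E-box. These matches describe letters and not sites in use.

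In 3 lists of genes around the pathway, 1 gene each was called, all as lower, beside the 1.8% called lower among all tested genes. Among 16 tested genes of elongation, desaturation and related steps, of 22 listed, only Fads2, the delta-6 desaturase, was called, as lower: its signals were 1651.4, 1863 and 2144.6 in KO903, KO904 and KO905, against 3168.7, 3722.6 and 2386.9 in WT4, WT5 and WT6 (log2 -0.69 ± 0.16, limma adjusted p = 0.0365). Its second probe set did not pass (-0.34 ± 0.14, adjusted p = 0.217). The median log2 difference of that list was -0.23, with 13 of 16 below 0. Leaving out KO903, KO904, KO905, WT4 or WT5 ended the call of Fads2 (adjusted p of 0.135, 0.126, 0.0588, 0.107 and 0.0714).

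Among 18 tested genes of substrate and NADPH supply, of 24 listed, only Slc2a2 was called. It encodes the hepatic glucose transporter GLUT2 and read 4573.1, 4129.3 and 4290.2 in the knockout livers against 5419.4, 5589 and 5882.7 in the wild-type livers. The fall was small (log2 -0.38 ± 0.09, limma adjusted p = 0.0471) and the call ended without any 1 of the 6 livers (adjusted p up to 0.171). Pklr, the liver pyruvate kinase and a ChREBP target, chosen after its values were seen, was just outside the threshold on its brighter probe set (log2 -0.85 ± 0.21, adjusted p = 0.0502) and passed on the other (-0.71 ± 0.13, adjusted p = 0.0136). Mpc1, of the same list and also chosen after its values were seen, missed the threshold in the other direction. It was higher in the knockout livers without overlap (log2 0.39 ± 0.10, limma adjusted p = 0.0549). The list's median was -0.11.

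Among 20 tested regulators, of 25 listed, Srebf1 alone was called. This gene of SREBP-1 had signals of 2192.4, 1633.5 and 1858.3 in KO903, KO904 and KO905, against 3786.4, 2702.3 and 2914.3 in WT4, WT5 and WT6, with no overlap. This gave a log2 difference of -0.72 ± 0.15 (limma adjusted p = 0.0235), and the call ended without KO904, KO905 or WT4 (0.105, 0.0822 and 0.0692). Unlike Fasn, Srebf1 was highest in WT4 and lowest in WT5 among the wild-type livers. The list's median was -0.12.

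Of 10 tested genes of the clock and its outputs, of 20 listed, Dbp, Nampt and Tef were called lower and 0 higher. Among all tested genes 1.8% were called lower and 2.14% higher. The list was chosen with earlier results of these data known, so these shares are background and not a test of the list. An unadjusted limma p under 0.05 was found for 9 of the 10, and for at least 1592 of the 10620 tested probe sets. Dbp, a transcription factor with a strong daily rhythm in liver, read 435.1, 714.8 and 456.3 in KO903, KO904 and KO905 against 1403.1, 1343.4 and 1797.2 in WT4, WT5 and WT6 (log2 -1.50 ± 0.19, limma adjusted p = 0.00162). Tef, a relative of Dbp, was also lower (log2 -0.67 ± 0.13, limma adjusted p = 0.0176), as was Nampt, an enzyme of NAD synthesis whose transcript cycles (-1.08 ± 0.15, 0.00267); the second probe set of Nampt did not pass (-0.20, adjusted p = 0.604). Dbp and Nampt kept their calls without any 1 liver. Calls of Tef ended without KO903, KO905, WT4 or WT6 (adjusted p up to 0.0786). The groups did not overlap for 7 clock genes that were lower and 2 that were higher in the knockout; among all tested genes, 10.1% lay apart as lower and 14% as higher. Within wild type, WT6 had the highest signal of Dbp and WT5 the lowest. An order within a group does not address a difference between the groups. The labels give no time of sampling, which cannot be told apart from genotype here. The part of sampling time in the lipogenic differences was not tested.

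Of 10 tested genes of the fasting response, of 17 listed, limma called none, with a median log2 difference of -0.17. An unadjusted limma p under 0.05 was found for 5 of them, a level reached by at least 1592 of the 10620 tested probe sets. The smallest p-values were those of Acot1, an acyl-CoA thioesterase (98.4 to 199.7 in knockout and 240.6 to 414.9 in wild-type livers, adjusted p = 0.0502), and Tat, tyrosine aminotransferase (-0.42 ± 0.12, adjusted p = 0.0803). Of the 5 genes with an unadjusted p under 0.05, Cpt1a and Ppargc1a were also lower. G6pc was higher, with overlapping groups (log2 0.42 ± 0.17, limma adjusted p = 0.231). Whether feeding state differed between the groups was not tested.

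**Figure D5:**
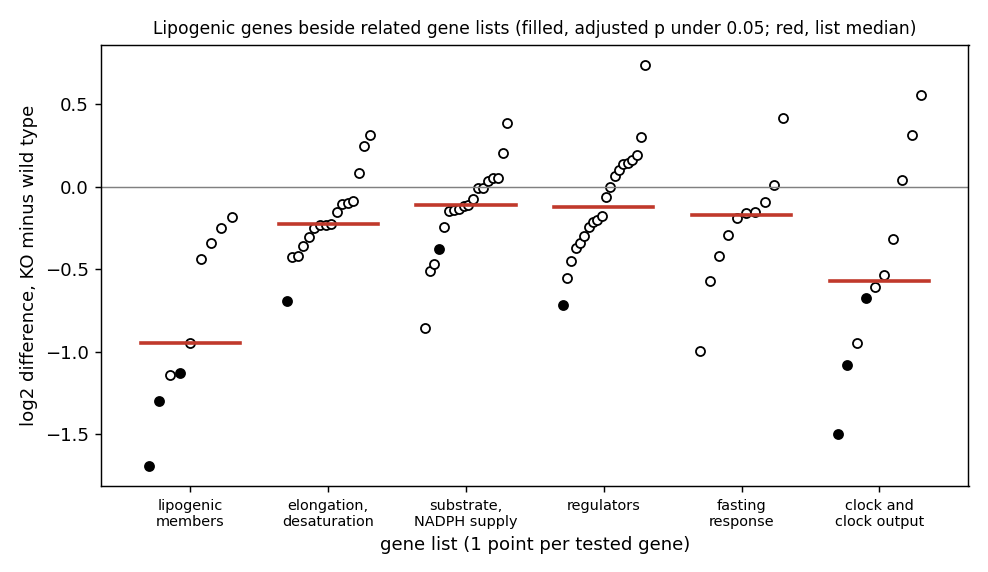
Log2 difference, Atp7b knockout minus wild type, of each tested gene (1 probe set per gene) in the lipogenic members and 5 related lists; filled points passed a limma adjusted p of 0.05 and red lines are list medians. The medians are -0.95 for the members, -0.57 for the clock list and -0.23 to -0.11 for the other lists.

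Other cell types were checked by lists of their markers. Their counts at an unadjusted limma p under 0.05 stand beside at least 1592 of the 10620 tested probe sets. Of 8 adipocyte markers, a cell type that also makes fatty acids, only Fabp4 was measured, with signals of 91.2 to 121.9 in knockout livers and 99 to 178.6 in wild-type livers; the others, among them Adipoq and Plin1, were not analysed here. On their brightest probe sets, all 7 measured of 8 Kupffer cell and macrophage markers had a log2 difference above 0. Limma called none of them (3 at an unadjusted p under 0.05). Their summed signal was 5208 to 7073 in knockout livers and 3744 to 5330 in wild-type livers. A dimmer probe set of Csf1r read 521.2, 222.7 and 280.2 in KO903, KO904 and KO905, against 357.2, 472.6 and 381.9 in WT4, WT5 and WT6. Another read 491.1, 349.9 and 439.7 against 419.1, 349.1 and 354.7. Endothelial markers, 7 of 8 measured, summed to 2826 to 3605 in knockout livers and 2358 to 2771 in wild-type livers; limma called none, 4 had an unadjusted p under 0.05, and Lyve1 alone had a log2 difference below 0 (-0.56). Stellate markers, 3 of 8 tested, summed to 2340 to 2529 in knockout livers and 2102 to 3374 in wild-type livers. Lymphocyte markers, 2 of 8 tested, summed to 311.5 to 331.6 in knockout livers and 233 to 295.2 in wild-type livers. Of 6 erythroid markers Alas2 alone was measured, at 714 to 894 in knockout livers and 377.2 to 417.7 in wild-type livers (higher, limma adjusted p = 0.00183). None of the 8 cholangiocyte markers was analysed here. The part of cell composition in the lipogenic differences was not tested.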

How the data were processed

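Liver RNA of 3 samples labelled Atp7b knockout and 3 labelled wild type was measured on 1 array each. The deposited table holds linear array intensity for 11811 probe sets: MAS 5.0 signals, which the authors scaled on each array to a target average of 350, per the labels. How these probe sets were selected is not stated. MAS 5.0 subtracts mismatch signals, so low signals are noisy. Precision is limited by the number of arrays.

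Here 33 control probe sets and 1158 with a mean signal under 100 were left out, and log2(signal + 16) was fitted on 10620 with limma 3.58.1 in R 4.3.3 (lmFit, eBayes with an intensity trend, two-sided, Benjamini-Hochberg over all tested probe sets, threshold 0.05). Log2 differences are knockout minus wild type and understate low signals; SEs are limma's moderated ones, and 95% intervals are not adjusted. No exact permutation test of 3 against 3 can go below 0.1. Gene names came from the platform annotation, checked against RefSeq identifiers (0 symbols changed); the brightest tested probe set stood for a gene. Named genes were the members, called genes of 5 related lists (or the 2 of smallest p), Atp7b, markers and the 5 genes most correlated with Fasn. Pklr, Mpc1, Cpt1a, Ppargc1a and G6pc were added after their values were seen. Members and lists were chosen with earlier results of these data known. The fit was tested on simulated data (10620 probe sets, 200 changed). It recovered 20.1%, 74.7% and 97.4% of changes of 0.5, 1 and 2 on the log2 scale. Of its calls, 4.13% were unchanged probe sets. These rates cover all changed probe sets together. They do not apply directly to members with large SEs, such as Fasn (0.30) and Acss2 (0.32). Alternatives were other normalizations, pseudocounts, filters, variance models and array weights, a threshold of 0.10, averaging the probe sets of each gene, and leaving out each sample. Figures used Python 3.11.15 and matplotlib 3.10.9.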

Additional observations from a re-analysis of the deposited data

How the results depend on the processing

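Thrsp kept its call and direction in all 16 alternatives (log2 -1.90 to -1.46, adjusted p up to 0.0142), and the median log2 difference of the members stayed between -1.24 and -0.69. With 1 liver left out, the count of called probe sets, 440 with all livers, was 175 to 469, that of member probe sets called lower was 2 to 10 (6 with all) and that of member genes 1 to 5 (3 with all). In the same fits the log2 difference was -1.24 to -0.69 for Acly, -1.53 to -0.73 for Acss2, -1.72 to -0.97 for Fasn, -1.43 to -0.89 for Elovl6 and -0.61 to 0.13 for Me1, whose sign reversed without WT5 (0.13), and the genes called in the 5 related lists, 6 with all livers, numbered 2 to 7. At a threshold of 0.10 the counts were 786 probe sets, 5 member genes and 13 genes of the related lists. Acly, missed at 0.0554, passed with arrays centred on their median (log2 -0.98, adjusted p = 0.0456), with array weights (-0.91, 0.0425) and with the mean over its probe sets (-1.05, 0.0472). Fasn (-1.30) was lost with eBayes without the trend (0.0705) and with robust eBayes (0.0953), and the related lists had 3 calls without the trend, where Fads2 (0.0747), Slc2a2 (0.127) and Srebf1 (0.0552) were lost. Slc2a2 was also lost after quantile normalization (0.0504) and Fads2 with the mean over its probe sets (0.0632). The causes of these changes were not tested. The fits that leave 1 liver out also have fewer samples. Acaca had no value at a minimum signal of 200. No paired analysis was possible because the groups share no sample number.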

Other observations

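The order of the wild-type livers seen in the lipogenic genes, WT5 above WT4 above WT6, was also counted in the related lists. It was followed by 7 of 18 tested genes of substrate and NADPH supply and 6 of 16 of elongation and desaturation, against 18.9% of all tested genes. It was followed by 4 of 20 regulators, 1 of 10 fasting response genes and 1 of 10 clock genes. These counts were not tested.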
